A study of Mus musculus with 66 samples.

Results

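Corticosteroid receptors and genes that glucocorticoids are known to induce were examined in the central nervous system of mice homozygous for 5 spontaneous Rorb alleles. The 9 genes, of the 45706 gene identifiers in the deposited tables, were Nr3c1, Nr3c2, Fkbp5, Sgk1, Plin4, Tsc22d3, Ddit4, Zbtb16 and Errfi1. They were given as a list of symbols, chosen by function with earlier results of these libraries in view, among them fold changes of mutants against controls, so differences between mutants and controls, and any call among them, are given below as descriptions. Tests are given for tissue, region, control strain, sex and the agreement of tissues within an animal. Whether values of these were also in view when the list was made is not known. The interaction of genotype and tissue is given only where 2 tissues are set side by side. It rests on the same mutant and control values and supports nothing about the choice of genes.

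RNA was sequenced from 66 libraries in 20 groups. Sagittal brain hemi-sections and hydraulically extruded spinal cords came from the same 24 animals, and cortex, hippocampus and cerebellum from 6 other animals by their labelled ages, although the study's methods describe Rorb h5/h5 brains as cut sagittally, with a side frozen whole and the other dissected. Rorb h1/h1 arose on C57BL/6J, Rorb h2/h2 and Rorb h3/h3 on B6(Cg)-Tyr c-2J/J, Rorb h4/h4 on B6.129S7-Il1r1 tm1/mx/J and Rorb h5/h5 on DBA/1J. Controls were C57BL/6J mice for the first 4 alleles and DBA/1J mice for h5, and each mutation was kept as a line of its own, so the allele and the line's other variants cannot be told apart. Mutants are called by their allele pair below. There were 4 animals each of the h4/h4, h2/h2 and h3/h3 lines and 3 animals of each other group. Brain and spinal cord were taken at 8.0 weeks in C57BL/6J and Rorb h1/h1 mice, at 7.9 to 9.4 weeks in Rorb h2/h2, at 8.0 to 9.6 weeks in Rorb h3/h3, at 8.4 to 8.6 weeks in Rorb h4/h4, at 8.4 to 8.9 weeks in DBA/1J and at 8.4 to 8.7 weeks in Rorb h5/h5 mice. All 6 animals of the dissected regions were labelled 7 weeks old, although the study's text mentions a slight age difference for hippocampus. No animal received a steroid by the labels, and the time of day of collection is not given in the sources used here.

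Corticosterone, the main glucocorticoid of mice, crosses into the brain and binds 2 nuclear receptors, the high-affinity mineralocorticoid receptor and the lower-affinity glucocorticoid receptor. The bound receptor leaves its chaperone complex, enters the nucleus and raises transcription of genes that carry its response elements, among them a co-chaperone that feeds back on the receptor itself. Mineralocorticoid receptor is known for its high level in hippocampal neurons, while glucocorticoid receptor is found in most neurons and glia, and many induced genes are also expressed in astrocytes, oligodendrocytes and endothelium.

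In GRCm38.p6 coordinates of RefSeq the genes were, by role, the receptors Nr3c1 (ENSMUSG00000024431) at chr18:39410545-39519421 and Nr3c2 (ENSMUSG00000031618) at chr8:76898083-77245012, the co-chaperone Fkbp5 (ENSMUSG00000024222) at chr17:28398753-28486149, and the induced genes Sgk1 (ENSMUSG00000019970) at chr10:21882184-21999903, Plin4 (ENSMUSG00000002831) at chr17:56100587-56109948, Tsc22d3 (ENSMUSG00000031431) at chrX:140539528-140600522, Ddit4 (ENSMUSG00000020108) at chr10:59949675-59951770, Zbtb16 (ENSMUSG00000066687) at chr9:48651797-48836225 and Errfi1 (ENSMUSG00000028967) at chr4:150853796-150868889.

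Each library held 32889755 to 59120536 estimated fragments, and each of the 9 genes passed the low-count filter in each comparison. The lowest count of a member was 58, for Plin4. Rorb itself was measured first: its log2 fold change was -2.10 ± 0.10 in h4/h4 brain, -0.91 ± 0.07 in h2/h2 brain, -0.60 ± 0.07 in h1/h1 brain, -0.05 ± 0.06 in h3/h3 brain and 0.40 ± 0.09 in h5/h5 brain. Some libraries stood apart in marker genes. The summed level of 4 cerebellar markers was 76.3 TPM in 1 DBA/1J brain, against 448 and 464 TPM in the other two. Summed meningeal fibroblast markers reached 346 TPM in the spinal cord of h5/h5 animal 3, against 46.1 and 62.9 TPM in its group. The region animal h5/h5 replicate 3 is labelled female but had Ddx3y, a Y-linked gene, at 30.8 to 50.1 TPM and Xist at or below 0.43 TPM, whereas the 35 other libraries labelled female had Ddx3y at or below 0.05 TPM. Sex enters the region fits only in an alternative with a term for sex, which takes this label as given.

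Levels between genes were compared in TPM, the abundance unit of RSEM that is scaled by transcript length and library depth. Tsc22d3 had the highest median over the 66 libraries at 89.0 TPM, followed by Sgk1 at 54.1 and Nr3c1 at 42.4 TPM. Errfi1 (31.0 TPM), Ddit4 (27.8), Nr3c2 (18.6), Fkbp5 (15.3) and Zbtb16 (11.4) were lower, and Plin4 was scarce at 1.56 TPM. Among group means, Zbtb16 spanned 6.06-fold, Nr3c2 5.38-fold, Sgk1 4.64-fold and Plin4 4.62-fold, whereas Nr3c1 spanned 1.99-fold and Ddit4 2.06-fold. Zbtb16, Nr3c2 and Fkbp5 had their highest group mean in hippocampus and their lowest in cerebellum, although for Nr3c2 the cortex and cerebellum libraries of DBA/1J mice overlapped. Sgk1 was highest in DBA/1J spinal cord (132.1 TPM) and lowest in h4/h4 spinal cord (28.5 TPM), and Plin4 was highest in C57BL/6J spinal cord (3.40 TPM) and lowest in h3/h3 brain (0.735 TPM).

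**Figure D1:**
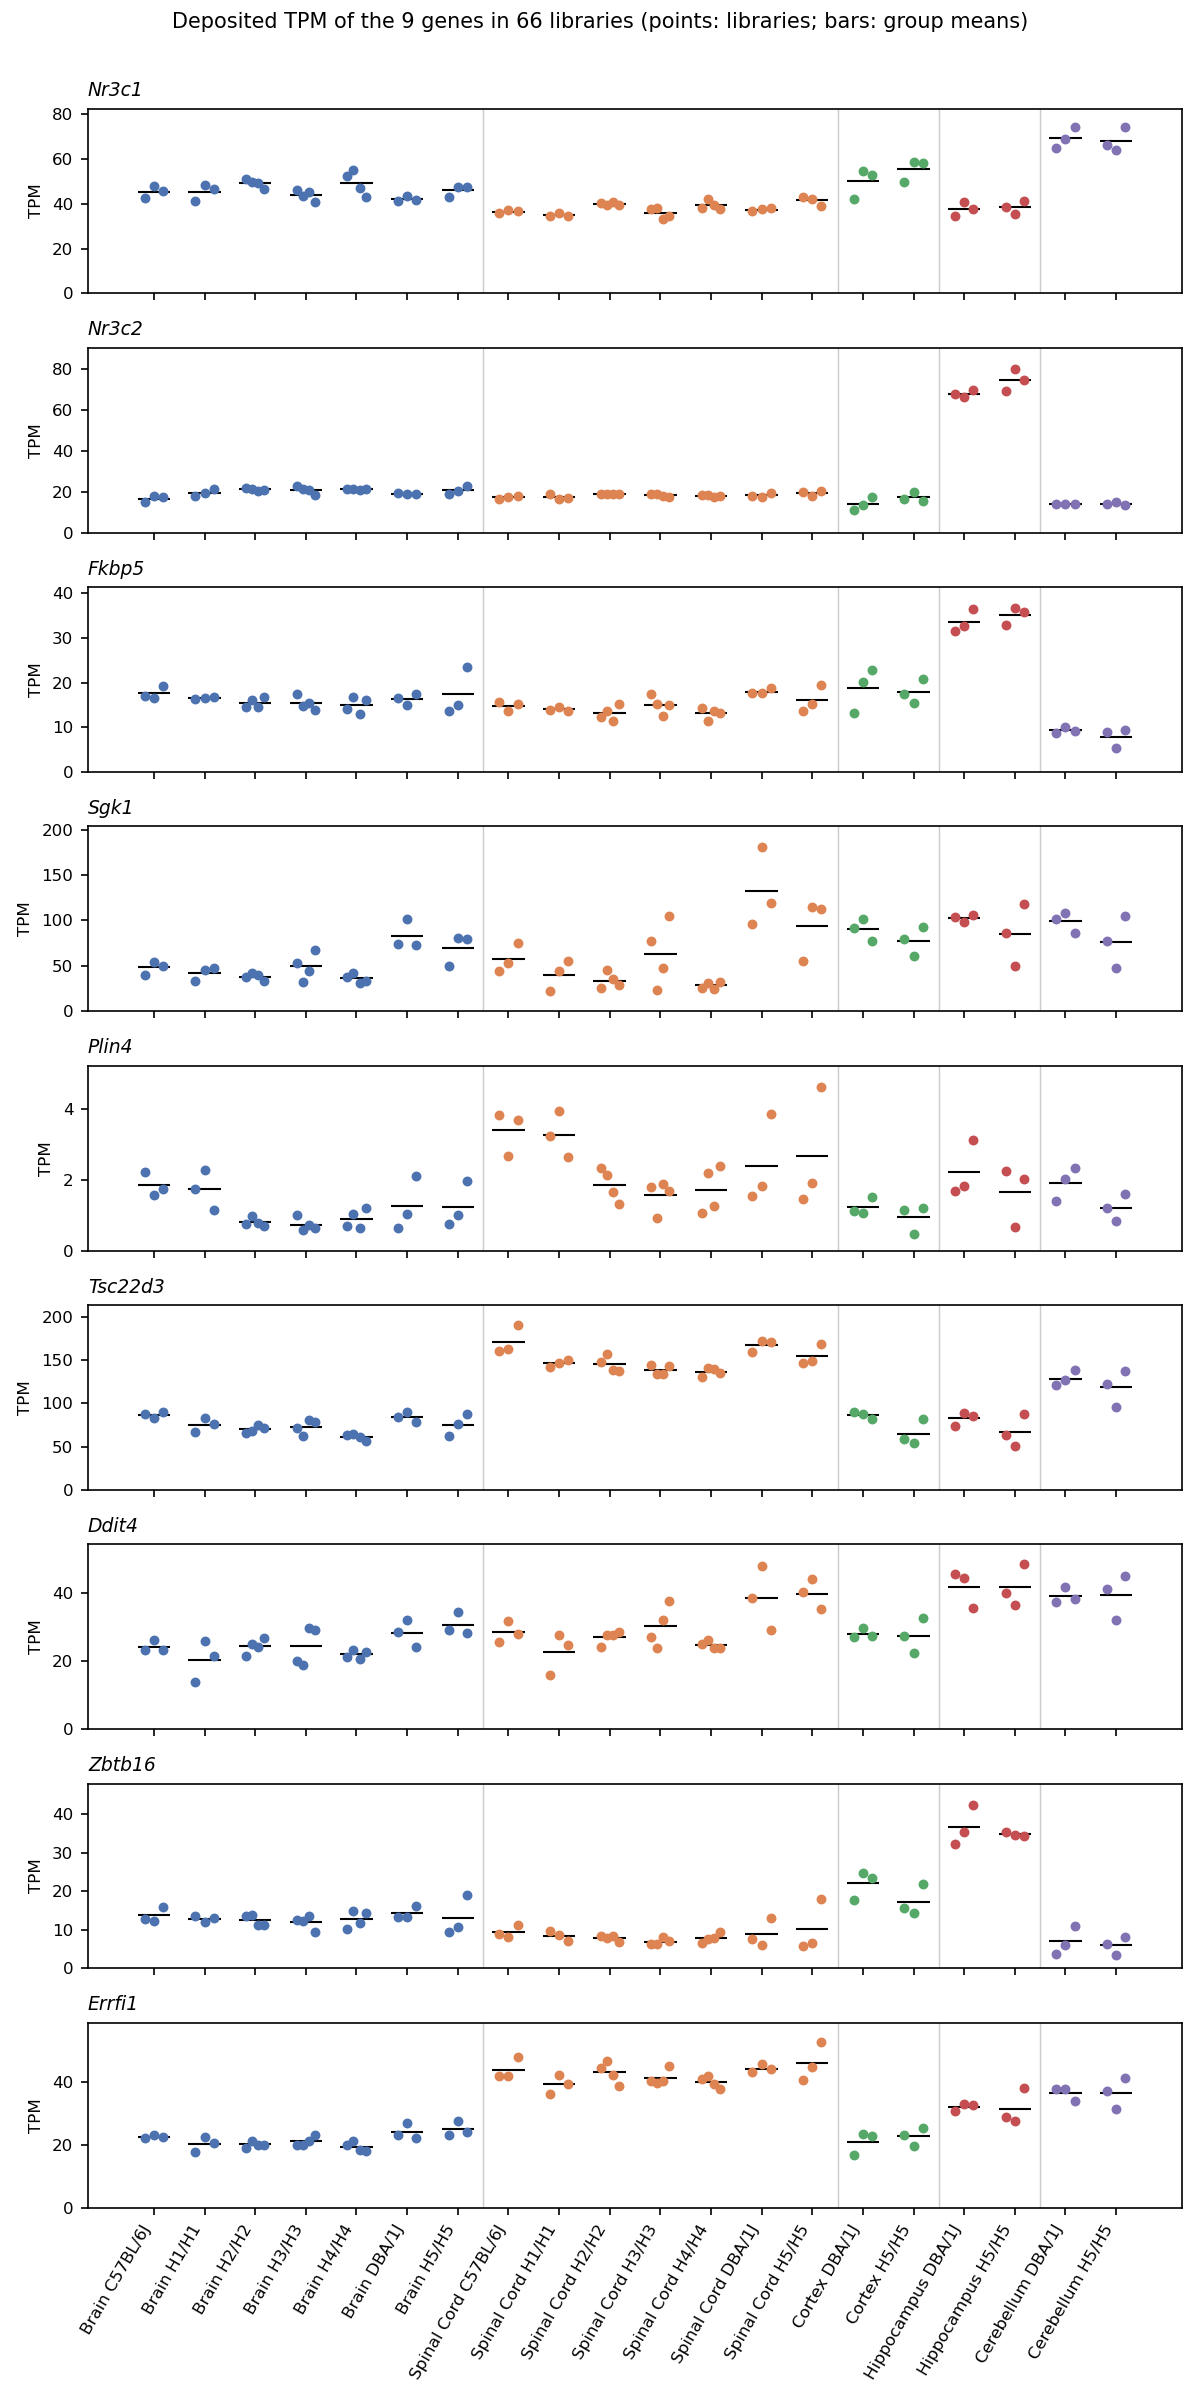
Deposited TPM of the 9 genes (1 panel each, own vertical scale from 0) in all 66 libraries by tissue and genotype. Points are libraries and bars are group means. Nr3c2, Fkbp5 and Zbtb16 stand highest in the 6 hippocampus libraries, and Plin4, Tsc22d3 and Errfi1 are higher in spinal cord than in brain.

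How often the 9 genes passed an adjusted p of 0.05 (edgeR quasi-likelihood test, Benjamini-Hochberg over all genes tested) is set here beside the share of all genes that did. In brain, 5 of 36 pairs of a member and an allele on C57BL/6J-derived backgrounds passed, against 0.252% of all gene tests (0 of 17603 genes in h1/h1, 0.136% in h2/h2, 0.164% in h3/h3 and 0.703% in h4/h4). In spinal cord, 9 of 36 passed, against 1.29% (0.289%, 2.09%, 1.01% and 1.75% in the same order). Nothing is read from these 2 counts, since the genes were listed with those contrasts known and all 4 mutants share the same 3 C57BL/6J controls per tissue. For h5/h5 against DBA/1J, 0 of 45 pairs passed in 5 tissues by edgeR or DESeq2, with 7 at an unadjusted p under 0.05 and 0.00586% of all gene tests passing (0 genes in brain and cortex, 0.00581% in spinal cord, 0.0118% in hippocampus and 0.012% in cerebellum). In h1/h1 tissues 0 members passed by this test or by DESeq2, with 2 in brain and 3 in spinal cord at an unadjusted p under 0.05. With no low-count filter edgeR called Sgk1 and Tsc22d3 in h1/h1 spinal cord, and with the replicate block it called Sgk1 there. In h1/h1 and h5/h5 brain edgeR passed 0 genes, so Rorb itself did not pass, although the study's DESeq2 tests found it to differ in both. A count of 0 in these comparisons is therefore not read as no change.

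The median log2 fold change of the 9 genes was -0.12 in h2/h2, -0.03 in h3/h3 and -0.09 in h4/h4 brain, and -0.09, -0.01 and -0.18 in the spinal cords of the same mice. The members' median in h1/h1 mice was -0.08 for brain and -0.06 for cord, so lower medians were not limited to the 3 lines above. Against DBA/1J, h5/h5 mice had medians of -0.16 (cerebellum), -0.11 (cortex), -0.08 (hippocampus), -0.02 (hemi-sections) and 0.05 (spinal cord). Over all genes tested the median lay between -0.0031 and 0.005 in all of these comparisons. In tissue contrasts, 10 of 18 pairs passed for spinal cord against brain (53.9% of all gene tests, 56.9% in C57BL/6J and 50.8% in DBA/1J) and 11 of 18 for hippocampus or cerebellum against cortex (39.4%). By region, 6 of 9 members passed in hippocampus, where 20.6% of all genes did, and 5 of 9 in cerebellum, where 58.1% did. Between the control strains 4 of 18 passed (16.3%). The tissue and strain results below are those of single genes.

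Cell type markers moved with the tissue contrasts, and their part in the members' differences was not tested. All 6 oligodendrocyte markers passed as higher in spinal cord than in brain in both strains, with a median log2 fold change of 1.67 in C57BL/6J and 1.84 in DBA/1J. Their summed level was 5958 to 6848 TPM in C57BL/6J brain and 20810.0 to 22680.0 TPM in spinal cord. Of 6 astrocyte markers 4 passed as higher and 1 as lower in spinal cord in each strain, while choroid plexus markers passed as lower (6 of 6 in each strain). Immediate early genes (6 of 6 in C57BL/6J and 5 of 6 in DBA/1J, medians -2.83 and -2.81), meningeal fibroblast markers (5 of 6 and 4 of 6) and mural markers (4 of 6 and 3 of 6) passed as lower in spinal cord as well. Between regions, choroid plexus markers passed as higher than in cortex for 5 of 6 in hippocampus (median 3.37) and for 6 of 6 in cerebellum (median 2.71). Their sums ran from 22.4 to 884.7 TPM in DBA/1J cortex, from 1509 to 6270.0 TPM in hippocampus and from 2578 to 3738 TPM in cerebellum. Meningeal fibroblast markers passed as higher for 4 of 6 in hippocampus and 6 of 6 in cerebellum, with sums of 70.8 to 91.8 TPM in cortex, 194.8 to 316.1 TPM in hippocampus and 192.4 to 217.4 TPM in cerebellum. Other lists passed as lower in cerebellum than in cortex, among them 6 of 6 microglial markers (median -2.03), 4 of 5 markers of oligodendrocyte precursors (median -1.08) and 5 of 6 immediate early genes (median -3.53). In hippocampus 2 of 6 microglial markers, 0 of 5 precursor markers and 5 of 6 immediate early genes (median -1.22) passed as lower. Of all genes tested, 20.6% passed between hippocampus and cortex and 58.1% between cerebellum and cortex, in either direction.

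Nr3c1 encodes the glucocorticoid receptor. In C57BL/6J mice it was at 42.6, 47.9 and 45.8 TPM in brain and at 35.8, 37.1 and 36.7 TPM in spinal cord, and the groups did not overlap. The spinal cord was lower by a log2 fold change of -0.33 ± 0.05 (SE, n = 3 animals, edgeR adjusted p = 3.35e-05). DBA/1J mice showed the same order, with a log2 fold change of -0.23 ± 0.04 (edgeR adjusted p = 0.00114). Among DBA/1J regions Nr3c1 stood at 42.4, 54.8 and 53.01 TPM in cortex, 34.8, 40.8 and 37.7 TPM in hippocampus and 65.1, 68.9 and 74.3 TPM in cerebellum. Hippocampus was below cortex in all 3 animals (-0.48 ± 0.08, edgeR adjusted p = 0.00269). Cerebellum had the highest TPM without overlap, but after TMM scaling its difference from cortex was 0.20 ± 0.09 and did not pass (edgeR adjusted p = 0.0895).

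The alleles differed little from their controls in Nr3c1. In spinal cord it was at 40.6, 39.6, 40.8 and 39.4 TPM in h2/h2 and at 38.4, 42.3, 39.4 and 37.7 TPM in h4/h4 mice, both above the range of C57BL/6J. The log2 fold changes were 0.11 ± 0.03 and 0.12 ± 0.03. Values in h1/h1 (-0.01 ± 0.03) and h3/h3 spinal cord (-0.01 ± 0.04) lay within their standard errors of 0. Rorb h5/h5 spinal cord held 43.3, 42.2 and 39.1 TPM against 36.8, 37.5 and 37.96 TPM in DBA/1J, again without overlap (0.15 ± 0.04). How many of all genes lay above the controls in this way was not counted, and nothing is read from it. In these bulk tissues, a change in the number of cells that express a gene and a change in RNA per cell cannot be told apart.

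Nr3c2, the mineralocorticoid receptor, marked the hippocampus more than any other of the 9 genes. DBA/1J hippocampus held 67.6, 66.2 and 69.6 TPM, against 10.96, 13.6 and 17.6 TPM in cortex and 13.96, 13.8 and 13.9 TPM in cerebellum. The hippocampus exceeded the cortex by a log2 fold change of 2.22 ± 0.13, or 4.64-fold (n = 3 animals, edgeR adjusted p = 2.34e-05). Summed hippocampal markers Wfs1, Prox1, Zbtb20 and Neurod2 went from 94.8 to 133 TPM in cortex to 243 to 260 TPM in hippocampus. Rorb h5/h5 mice showed the same regional order, with 68.98, 80.05 and 74.7 TPM in hippocampus and 16.5, 19.7 and 15.53 TPM in cortex. The hippocampal log2 fold change of h5/h5 against DBA/1J was 0.10 ± 0.07. Brain hemi-sections and spinal cords did not differ beyond their spread in C57BL/6J (0.05 ± 0.05, edgeR adjusted p = 0.453) or DBA/1J (-0.08 ± 0.05, adjusted p = 0.203).

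In brain, Nr3c2 was higher in mutants on C57BL/6J-derived backgrounds than in their shared controls. C57BL/6J brains held 14.8, 17.7 and 17.3 TPM. Rorb h2/h2 brains held 21.7, 21.5, 20.4 and 20.7 TPM and h4/h4 brains 21.2, 21.4, 20.9 and 21.04 TPM, all above each control, with log2 fold changes of 0.36 ± 0.05 and 0.41 ± 0.05. Both passed, and without 1 library the call was kept in 1 of 7 fits for h2/h2 (only without C57BL/6J replicate 3) and in 7 of 7 for h4/h4. Rorb h3/h3 (22.7, 21.3, 20.8 and 18.3 TPM, 0.36 ± 0.07) lay above the controls as well, and h1/h1 overlapped them by 1 animal (17.7, 19.5 and 21.1 TPM, 0.21 ± 0.06). How many of all genes lay above the controls without overlap was not counted, and nothing is read from the lack of overlap. In the spinal cords of the same mice the log2 fold change was between 0.10 and 0.12 for each of the 4 alleles. The difference between tissues did not pass the edgeR test of the interaction for any allele, with an adjusted p of 0.485 in h2/h2 (-0.26 ± 0.06) and 0.159 in h4/h4 (-0.29 ± 0.06), whereas the h4/h4 interaction passed with DESeq2 (adjusted p = 0.0185) and in edgeR with no low-count filter (adjusted p = 0.0428). Summed hippocampal markers of the brains covered 127 to 134 TPM in C57BL/6J, 124 to 137 TPM in h2/h2 and 124 to 140 TPM in h4/h4 mice, ranges that overlap. Summed cerebellar markers covered 459 to 642 TPM in C57BL/6J, 473 to 511 TPM in h2/h2, 388.0 to 541.5 TPM in h3/h3 and 298 to 542.5 TPM in h4/h4 brains, with median log2 fold changes of -0.19, -0.27 and -0.46 over the 4 markers and 0 of 4 passing. In DBA/1J brains the same sums were 76.3 to 464 TPM, with a median log2 fold change of -0.70 against C57BL/6J and 0 of 4 markers passing, and 1 of 4 hippocampal markers passed as lower. The part of these markers in the Nr3c2 differences was not tested. DBA/1J brains, at 19.1, 18.6 and 18.8 TPM, also exceeded C57BL/6J brains, by 0.24 ± 0.05 (edgeR adjusted p = 0.0196), a call kept in 2 of 6 fits that left out 1 library.

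Fkbp5 encodes a co-chaperone of the receptor complex that is itself glucocorticoid-induced. DBA/1J hippocampus held 31.6, 32.7 and 36.6 TPM, cortex 13.2, 20.1 and 22.9 TPM and cerebellum 8.66, 9.99 and 9.22 TPM, with no overlap between regions. Hippocampus stood 1.01 ± 0.17 above cortex on the log2 scale (edgeR adjusted p = 0.00383) and cerebellum -1.07 ± 0.17 from it (adjusted p = 0.000547). In spinal cord, DBA/1J controls held 17.6, 17.6 and 18.8 TPM and C57BL/6J controls 15.6, 13.7 and 15.3 TPM. The strain difference of 0.30 ± 0.07 passed (edgeR adjusted p = 0.0092), and it passed in each of 6 fits without 1 library. In brain the strains overlapped (0.11 ± 0.11, edgeR adjusted p = 0.607). C57BL/6J spinal cord was -0.20 ± 0.10 from brain, which did not pass with tissue as the only term (edgeR adjusted p = 0.101) and passed with the animal as a block (-0.19 ± 0.07, adjusted p = 0.0245) or with sex as a covariate (adjusted p = 0.0215). In brain the log2 fold change of each allele lay within its standard error of 0, for example in h2/h2 at -0.07 ± 0.09 and h4/h4 -0.06 ± 0.10.

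In the cerebellum of h5/h5 mice Fkbp5 was at 8.88, 5.40 and 9.37 TPM, which overlapped DBA/1J (-0.49 ± 0.13). Summed choroid plexus markers of these 3 cerebellum libraries were, in ascending order, 12.4, 1362 and 2050.0 TPM, against 2578 to 3738 TPM in DBA/1J, with a median log2 fold change of -1.55 and 0 of 6 markers passing, and their part was not tested. The lowest of these 3 animals, replicate 2, was also the lowest of its group for Sgk1, Plin4, Tsc22d3 and Ddit4 in cortex, hippocampus and cerebellum.

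**Figure D2:**
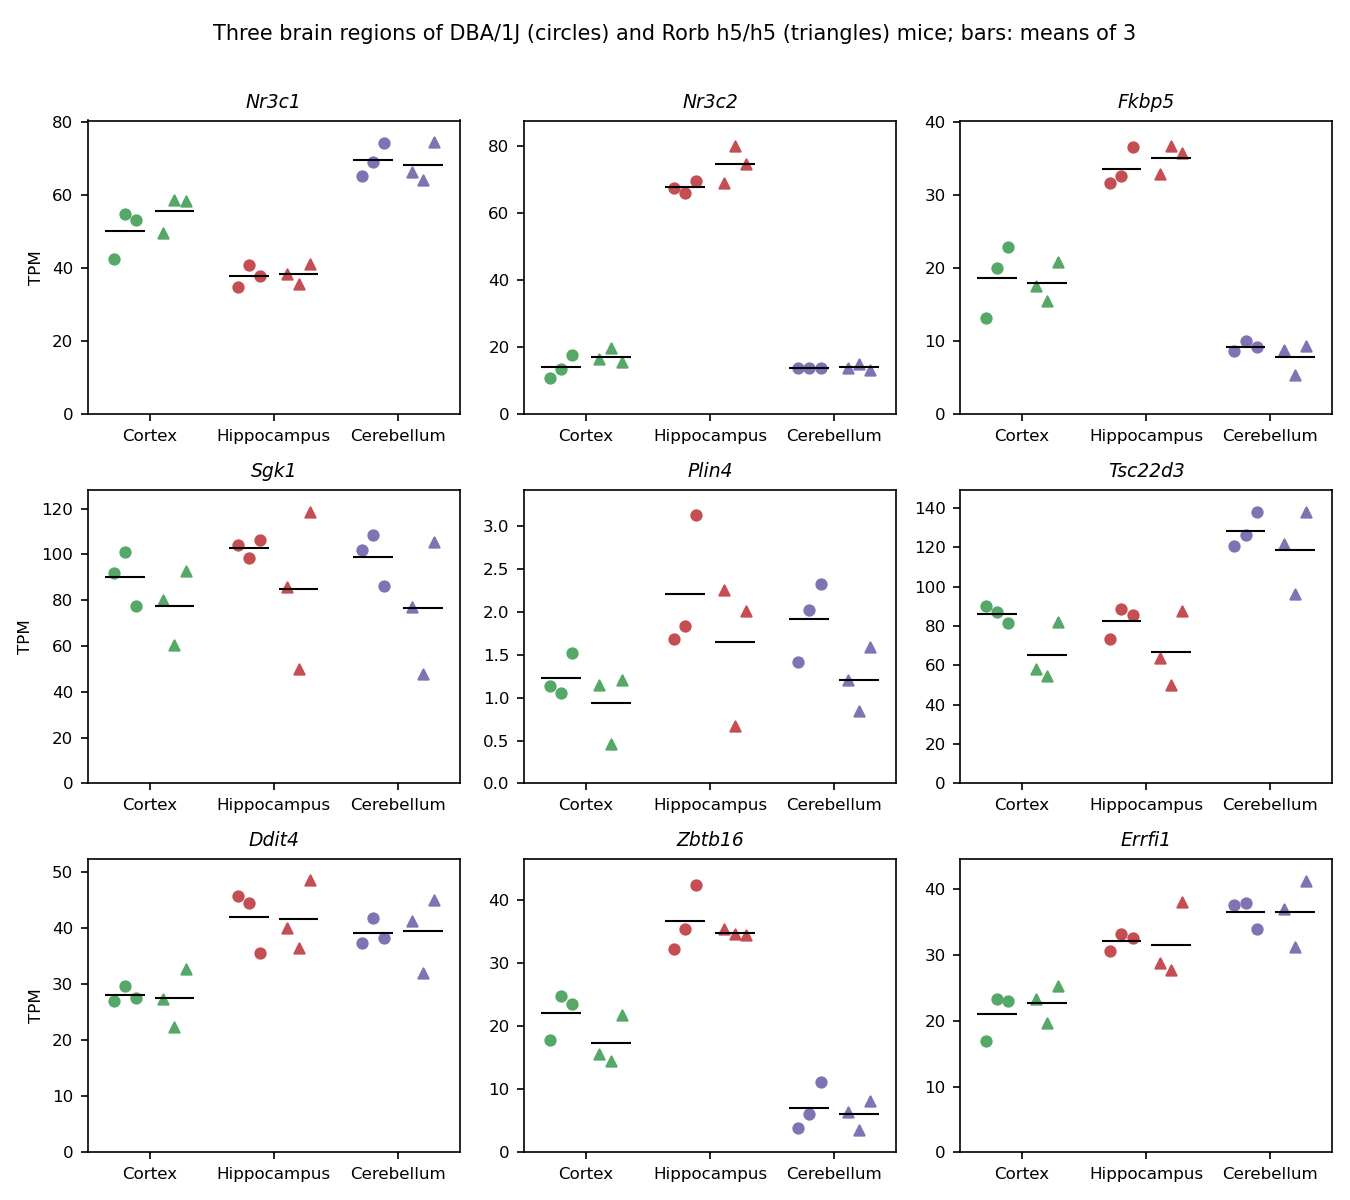
TPM (vertical axis from 0) of the 9 genes in cortex, hippocampus and cerebellum of 3 DBA/1J mice (circles) and 3 h5/h5 mice (triangles), with bars at group means. Nr3c2 separates hippocampus, at 66.2 to 80.05 TPM, from both other regions, and Fkbp5 and Zbtb16 are ordered hippocampus, cortex, cerebellum in each animal.

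Sgk1, serum- and glucocorticoid-regulated kinase, controls ion channels and transporters and is a textbook target of both receptors. RefSeq (GRCm38.p6) windows of 300 bases, from 250 before a transcript start, were at hand for 7 members in 15 windows, among them 6 of Sgk1. The textbook glucocorticoid response element, spelled AGAACA, then any 3 bases, then TGTTCT and searched on both strands, occurred in 1 of these 15 windows and in 3 of all 32851 windows (0.00913%). The Sgk1 window that holds it, chr10:21993640-21993939 on the plus strand, is shown because it is the only member window with the full element, and Tsc22d3 chrX:140600473-140600772 on the minus strand because it holds a single 6-base arm. Capitals mark each AGAACA or TGTTCT and the full element.
Sgk1: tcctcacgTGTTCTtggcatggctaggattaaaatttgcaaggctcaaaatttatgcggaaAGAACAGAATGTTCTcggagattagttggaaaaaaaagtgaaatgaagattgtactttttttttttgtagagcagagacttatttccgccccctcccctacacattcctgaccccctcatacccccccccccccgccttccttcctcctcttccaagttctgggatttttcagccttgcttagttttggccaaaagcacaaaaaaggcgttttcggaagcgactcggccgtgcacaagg
Tsc22d3: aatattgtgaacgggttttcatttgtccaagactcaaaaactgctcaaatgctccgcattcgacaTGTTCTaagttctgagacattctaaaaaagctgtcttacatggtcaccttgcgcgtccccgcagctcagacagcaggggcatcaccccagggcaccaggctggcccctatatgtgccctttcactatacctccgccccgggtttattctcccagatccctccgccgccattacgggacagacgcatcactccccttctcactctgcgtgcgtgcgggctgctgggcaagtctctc

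The Sgk1 element begins at position -189 from the transcript start, and a further TGTTCT lies at -242. In the Tsc22d3 window TGTTCT begins at -185. Either 6-base arm was found in 4 of the 15 member windows (26.7%) and in 19.0% of all windows, so a single arm is common. A looser core, which overlaps the full element and leaves free the first base and the A before ACA (GNACA, any 3 bases, TGTNC), was in 1 member window and in 0.475% of all windows. A match is a description of letters and was not tested for binding.

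C57BL/6J brains held 40.1, 54.6 and 50.05 TPM of Sgk1 and DBA/1J brains 73.98, 102 and 72.5 TPM. In spinal cord the values were 43.8, 53.2 and 74.9 TPM and 96.3, 181 and 119 TPM. Each DBA/1J library lay above each C57BL/6J library of its tissue. The difference was 0.86 ± 0.14 in brain, or 1.81-fold (edgeR adjusted p = 0.00293), and 1.13 ± 0.20 in spinal cord, or 2.18-fold (adjusted p = 0.00117). It passed in each of 6 fits per tissue that left out 1 library. Some cell type markers differed between the strains. The summed level of astrocyte markers was 642 to 691 TPM in DBA/1J and 890.1 to 1010.0 TPM in C57BL/6J brain, 2 of 6 markers passed as lower, the median log2 fold change was -0.21, and S100b was listed at 0 in DBA/1J brain. In spinal cord their sum was 1506 to 1843 TPM in DBA/1J and 2440.0 to 2581 TPM in C57BL/6J, with 1 of 6 passing as higher and 2 as lower and a median of -0.08. In brain 2 of 6 oligodendrocyte markers (median -0.24), 2 of 5 precursor markers, 1 of 6 choroid plexus and 1 of 5 blood markers also passed as lower in DBA/1J. In spinal cord 3 of 6 immediate early genes and 2 of 6 microglial markers passed as higher in DBA/1J and 2 of 6 oligodendrocyte, 2 of 5 precursor and 2 of 5 blood markers as lower. The part of these markers in the Sgk1 difference was not tested. Spinal cord exceeded brain in C57BL/6J by 0.28 ± 0.13 (edgeR adjusted p = 0.0908) and in DBA/1J by 0.56 ± 0.22 (adjusted p = 0.0544). With the animal as a block the Sgk1 difference passed in both strains, at 0.27 ± 0.08 (adjusted p = 0.00927) and 0.53 ± 0.08 (adjusted p = 0.000913), as it did with sex as a covariate (adjusted p = 0.036 and 0.0494) and with no low-count filter (0.00143 and 0.0121).

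Among alleles, Sgk1 was lower in the spinal cord of h2/h2 mice (25.4, 45.1, 35.5 and 28.5 TPM) and h4/h4 mice (25.3, 31.6, 24.8 and 32.2 TPM) than in C57BL/6J. The log2 fold changes were -0.81 ± 0.14 and -0.93 ± 0.13, and only h4/h4 lay below the controls without overlap, as 8.0% of all genes did. Rorb h1/h1 spinal cord (22.4, 43.8 and 55.01 TPM, -0.41 ± 0.19) overlapped its controls. Rorb h3/h3 animals ranged most widely, with 77.4, 22.9, 47.4 and 105 TPM in spinal cord and 53.6, 32.5, 44.4 and 67.3 TPM in brain, so their mean difference of 0.13 ± 0.33 in cord carries a large error. In brain h2/h2 and h4/h4 stood at -0.28 ± 0.08 and -0.29 ± 0.08, and the step from brain to spinal cord did not pass (edgeR interaction adjusted p = 0.855 and 0.292), although for h4/h4 the interaction passed with no low-count filter (adjusted p = 0.0108). Against DBA/1J, h5/h5 mice were at -0.32 ± 0.19 in cerebellum, -0.27 ± 0.15 in cortex and -0.38 ± 0.22 in hippocampus. The brain hemi-sections gave -0.34 ± 0.17 and the spinal cords -0.46 ± 0.28. Within h5/h5 hippocampus the 3 animals held 85.8, 50.01 and 119 TPM, a wider range than the 104, 98.3 and 106 TPM of DBA/1J. Sgk1 did not pass between regions.

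Plin4 encodes perilipin 4, a coat protein of lipid droplets, and was the least abundant of the 9 genes. C57BL/6J brains held 2.23, 1.58 and 1.75 TPM and their spinal cords 3.82, 2.68 and 3.69 TPM. Spinal cord was higher by 0.90 ± 0.16 (edgeR adjusted p = 0.000343). In DBA/1J the tissues overlapped (0.65, 1.03 and 2.10 TPM in brain, 1.53, 1.82 and 3.85 TPM in spinal cord). That difference of 0.90 ± 0.43 did not pass with tissue as the only term (edgeR adjusted p = 0.107) and passed with the animal as a block (0.93 ± 0.14, adjusted p = 0.000746), with sex as a covariate (adjusted p = 0.0028) and with no low-count filter (adjusted p = 0.0419). The difference of hippocampus from cortex, 0.78 ± 0.25, did not pass (adjusted p = 0.0568), and passed with the block (0.75 ± 0.15, adjusted p = 0.0151), with sex as a covariate (adjusted p = 0.0102), with DESeq2 (adjusted p = 0.0154) and with no low-count filter (adjusted p = 0.0302).

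Of the 9 genes, Plin4 showed the largest fold changes in mutants. In brain it was at 0.75, 0.99, 0.78 and 0.69 TPM in h2/h2, 1.01, 0.57, 0.73 and 0.63 TPM in h3/h3 and 0.7, 1.02, 0.63 and 1.19 TPM in h4/h4 mice, and each of these 12 libraries lay below each control, as 4.81%, 4.1% and 5.91% of all genes did in the 3 comparisons. The log2 fold changes were -1.19 ± 0.17, -1.32 ± 0.20 and -1.01 ± 0.21. The first 2 passed, and without 1 library these calls were kept in 4 of 7 fits for h2/h2 and in 1 of 7 for h3/h3 (only without h3/h3 replicate 1). Rorb h1/h1 brains overlapped the controls (1.75, 2.29 and 1.16 TPM, -0.07 ± 0.23). The spinal cords gave the same picture, with 2.32, 2.13, 1.65 and 1.31 TPM in h2/h2 (-0.90 ± 0.15), 1.81, 0.91, 1.88 and 1.68 TPM in h3/h3 (-1.09 ± 0.21) and 1.06, 2.19, 1.25 and 2.40 TPM in h4/h4 mice (-0.97 ± 0.22), all below the controls, as 4.47%, 6.2% and 8.0% of all genes were. Rorb h1/h1 spinal cords held 3.24, 3.95 and 2.65 TPM (0.02 ± 0.14). Without C57BL/6J spinal cord replicate 1, the highest control, none of the Plin4 spinal cord differences passed, and their log2 fold changes were then -0.78 in h2/h2, -0.97 in h3/h3 and -0.85 in h4/h4 mice. Endothelial markers, summed over 6 genes, were 214 to 227 TPM in h2/h2 and 193 to 237 TPM in h4/h4 brain against 230.2 to 266.6 TPM in C57BL/6J, with 1 of 6 markers lower in each. In h3/h3 brain they were 219.0 to 247.3 TPM, which overlapped the controls, with 0 of 6 markers passing. In spinal cord the sums were 229.9 to 249.7 TPM in C57BL/6J, 206 to 242 TPM in h2/h2, 200.3 to 248.6 TPM in h3/h3 and 202 to 222 TPM in h4/h4 mice, with 1 of 6 markers lower in each mutant, and 1 of 6 neuronal markers was lower in h2/h2 and in h4/h4. Their part in the Plin4 differences was not tested.

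Rorb h5/h5 mice differed from one another more than from DBA/1J in Plin4. Their spinal cords held 1.47, 1.91 and 4.63 TPM and their brains 0.74, 1.00 and 1.98 TPM. Animal 3, whose spinal cord library carried the high meningeal markers, was the highest of its genotype in both tissues. The spinal cord difference was 0.15 ± 0.44 with this library and -0.51 without it. In the regions the log2 fold changes were -0.46 ± 0.33 in cortex, -0.47 ± 0.39 in hippocampus and -0.69 ± 0.24 in cerebellum. The choroid plexus markers were lower in the same h5/h5 cerebellum libraries, as given for Fkbp5 above, and their part in the Plin4 difference was not tested.

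**Figure D3:**
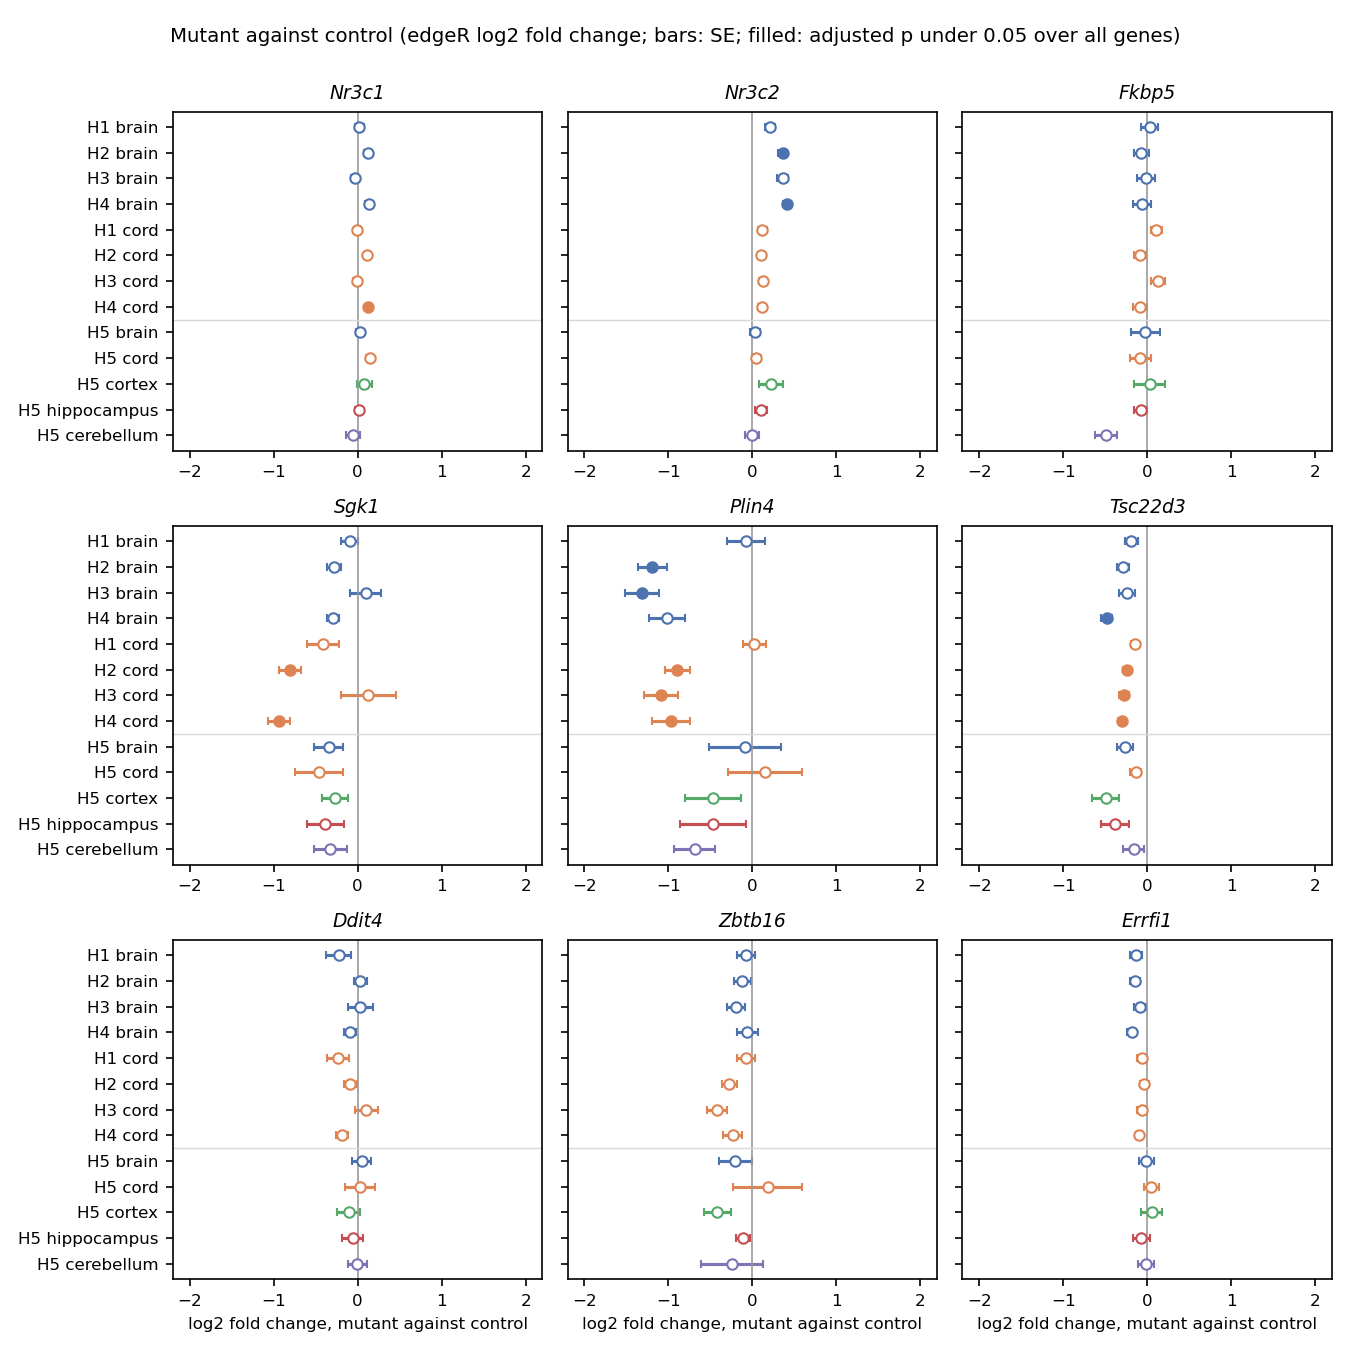
Log2 fold change (horizontal axis) with its standard error (bars) of each gene in 13 comparisons of mutants with controls. Filled points passed an edgeR adjusted p of 0.05 over all genes, shown as a description. Plin4 lies left of 0 in brain and spinal cord of h2/h2, h3/h3 and h4/h4 mice.

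Tsc22d3 encodes GILZ, a leucine zipper protein that mediates anti-inflammatory actions of glucocorticoids. It was the most abundant member, at 87.3, 82.9 and 89.5 TPM in C57BL/6J brain and 161, 162 and 191 TPM in spinal cord. Spinal cord was higher by 0.98 ± 0.07 in C57BL/6J (edgeR adjusted p = 5.55e-08) and by 0.92 ± 0.07 in DBA/1J (adjusted p = 3.14e-06). The oligodendrocyte markers moved with Tsc22d3, Errfi1 and Plin4 between these tissues (6 of 6 higher in spinal cord). Cerebellum (121, 126 and 138 TPM) exceeded cortex (90.1, 87.2 and 81.4 TPM) by 0.35 ± 0.09 (edgeR adjusted p = 0.00942), whereas hippocampus did not differ from cortex beyond the spread (-0.09 ± 0.09, adjusted p = 0.507). The 2 control strains were close, with 0.04 ± 0.08 in brain (adjusted p = 0.833) and -0.03 ± 0.06 in spinal cord (adjusted p = 0.777).

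In spinal cord the log2 fold change of Tsc22d3 was -0.15 ± 0.05 in h1/h1 (142, 147 and 150.1 TPM), -0.24 ± 0.04 in h2/h2 (148, 157, 138 and 138 TPM), -0.28 ± 0.06 in h3/h3 (145, 133, 134 and 143 TPM) and -0.30 ± 0.04 in h4/h4 mice (131, 141, 139 and 135 TPM). All 15 of these libraries lay below the 3 controls. Of all genes, 21.4%, 4.47%, 6.2% and 8.0% lay below the controls without overlap in these 4 comparisons, and nothing is read from the count of libraries. In brain h4/h4 was lowest, at 63.2, 64.2, 61.2 and 56.4 TPM (-0.48 ± 0.07), with h2/h2 at -0.29 ± 0.07 and h3/h3 at -0.24 ± 0.09. For h3/h3 spinal cord the call was kept in 2 of 7 fits that left out 1 library and was lost without any 1 of the 3 controls or without h3/h3 replicate 2 or 3. Against DBA/1J, h5/h5 stood at -0.50 ± 0.16 in cortex and -0.38 ± 0.17 in hippocampus, but replicate 3 of each overlapped the controls (58.3, 54.5 and 82.2 TPM in cortex against 90.1, 87.2 and 81.4 TPM).

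Ddit4, or REDD1, restrains mTORC1 and is induced by glucocorticoids, hypoxia and other stresses. C57BL/6J brains held 23.4, 26.4 and 23.3 TPM and spinal cords 25.7, 31.9 and 28.1 TPM, higher in spinal cord by 0.26 ± 0.08 (edgeR adjusted p = 0.0148). Without C57BL/6J spinal cord replicate 2 the call was lost, with a log2 fold change of 0.17 (edgeR adjusted p = 0.0971). DBA/1J spinal cord, at 38.6, 48.1 and 29.2 TPM, exceeded DBA/1J brain (28.7, 32.02 and 24.4 TPM) with the animal as a block (0.39 ± 0.09, adjusted p = 0.00829), with sex as a covariate (adjusted p = 0.0195) and with no low-count filter (adjusted p = 0.0363), and not with tissue as the only term (0.42 ± 0.19, adjusted p = 0.091). Hippocampus (45.8, 44.6 and 35.6 TPM) and cerebellum (37.3, 41.8 and 38.3 TPM) lay above cortex (27.03, 29.7 and 27.6 TPM). The differences were 0.53 ± 0.11 (edgeR adjusted p = 0.0102) and 0.24 ± 0.08 (adjusted p = 0.0251), the second of which passed in 1 of 6 fits without 1 library. Choroid plexus and meningeal markers were higher in the same libraries, and immediate early genes lower. Against C57BL/6J, DBA/1J spinal cord was 0.43 ± 0.16 higher, which did not pass (edgeR adjusted p = 0.077). In mutants the log2 fold changes of Ddit4 ran from -0.23 ± 0.13 in h1/h1 to 0.10 ± 0.14 in h3/h3 spinal cord, and none passed. Rorb h1/h1 animal 1 held the lowest value of 24 animals in each tissue, 13.9 TPM in brain and 16.1 TPM in spinal cord, against 25.9 and 27.9 TPM in animal 2.

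Zbtb16 encodes PLZF, a zinc finger transcription repressor that is strongly glucocorticoid-induced in many cell types. Its regional order was hippocampus (32.2, 35.4 and 42.4 TPM), cortex (17.8, 24.7 and 23.5 TPM) and cerebellum (3.85, 6.07 and 11.1 TPM), without overlap in DBA/1J. Hippocampus exceeded cortex by 0.68 ± 0.12 (edgeR adjusted p = 0.00439) and cerebellum lay at -1.88 ± 0.31 from it (adjusted p = 0.000665). Spinal cord was below brain in C57BL/6J (8.92, 8.20 and 11.4 against 12.9, 12.4 and 16 TPM, -0.52 ± 0.12, adjusted p = 0.00163). It was also below brain in DBA/1J (-0.71 ± 0.21, edgeR adjusted p = 0.0186), a call kept in 3 of 6 fits without 1 library and lost with DESeq2. In h3/h3 spinal cord Zbtb16 was at 6.25, 6.34, 8.09 and 7.16 TPM (-0.42 ± 0.12), below all C57BL/6J libraries, as 6.2% of all genes were. Rorb h5/h5 spinal cords held 5.77, 6.66 and 18.1 TPM, and the highest was again animal 3, whose brain at 19.1 TPM was the highest of all 24. Without that spinal cord library the difference from DBA/1J went from 0.18 ± 0.41 to -0.53. Fkbp5 in this animal was 19.4 TPM in spinal cord and 23.5 TPM in brain, the latter again the highest of 24.

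Errfi1, or MIG6, is a feedback inhibitor of the EGF receptor that glucocorticoids induce. It was at 22.1, 23.3 and 22.6 TPM in C57BL/6J brain and at 41.8, 41.8 and 47.9 TPM in spinal cord, a difference of 0.96 ± 0.06 (edgeR adjusted p = 9.93e-09). The difference in DBA/1J was 0.84 ± 0.08 (adjusted p = 1.62e-05). Hippocampus (30.7, 33.2 and 32.6 TPM) and cerebellum (37.7, 37.9 and 33.9 TPM) both exceeded cortex (16.9, 23.4 and 22.99 TPM), by 0.57 ± 0.10 (edgeR adjusted p = 0.00497) and 0.57 ± 0.10 (adjusted p = 0.000984). It did not pass between strains or for any allele. Its lowest log2 fold change among mutants was -0.18 ± 0.05 in h4/h4 brain (20.01, 21.3, 18.4 and 18.1 TPM). All 4 of these animals lay below the controls, as 5.91% of all genes did.

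Sex was tested within genotype over the 24 brains (11 male, 13 female) and the 24 spinal cords. By edgeR and by DESeq2 0 of 18 pairs of a member and a tissue passed, and 0 had an unadjusted edgeR p under 0.05 (0.115% of all gene tests passed, 0.0855% in brain and 0.146% in spinal cord). The largest differences, as males minus females, were -0.37 ± 0.19 in spinal cord and -0.35 ± 0.18 in brain for Plin4 and 0.34 ± 0.18 in spinal cord for Sgk1 (edgeR adjusted p = 0.778, 0.993 and 0.813). For the interaction of genotype and tissue, 0 of 45 pairs passed by edgeR and 1 by DESeq2 (Nr3c2 in h4/h4), with 7 at an unadjusted edgeR p under 0.05 (0.00109% of all gene tests passed, 0.0054% for h4 and 0 genes for each other allele).

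Brain and spinal cord of the same animal were then compared gene by gene, to ask whether an animal that stood high for its genotype in one tissue also did so in the other. For each of the 24 animals the log2 CPM of a gene was taken as a deviation from its genotype mean, and the deviations of the 2 tissues were correlated, with animals permuted within genotype 100000 times and p-values adjusted over 19816 genes. Sgk1, Plin4 and Ddit4 passed, and 40 of all genes did (0.202%).

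Sgk1 gave r = 0.92 and rho = 0.90 (n = 24, permutation p = 4e-05, adjusted p = 0.0384), and 21 of 24 animals deviated in the same direction in both tissues. Its spread was larger in spinal cord, with a standard deviation of 0.46 on the log2 scale against 0.22 in brain. Rorb h3/h3 animal 4 was the highest of its genotype in both tissues (67.3 TPM in brain, 104.8 TPM in spinal cord) and animal 2 the lowest (32.5 and 22.9 TPM). Without the 2 animals farthest from the median in brain r was 0.88. Within the 18 animals of C57BL/6J-derived backgrounds r was 0.91 (permutation p = 0.00075), and within the 6 of DBA/1J background 0.98 (exact permutation p = 0.111). Among all genes 0.0908% had an r at least as high.

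Ddit4 gave r = 0.90 and rho = 0.89 (permutation p = 2e-05, adjusted p = 0.0264), in the same direction in 19 of 24 animals. Without the 2 farthest animals r was 0.85, within C57BL/6J-derived backgrounds 0.94 (permutation p = 0.0004) and within DBA/1J background 0.95 (exact permutation p = 0.0278, the smallest that 3 against 3 animals permuted within genotype allow). Plin4 gave r = 0.87 and rho = 0.88 (permutation p = 1e-05, the smallest 100000 permutations can give, adjusted p = 0.0264), in the same direction in 20 of 24 animals. For Plin4 r was 0.81 without the 2 farthest animals, 0.77 within C57BL/6J-derived backgrounds (permutation p = 0.00307) and 0.96 within DBA/1J background (exact permutation p = 0.0278). By the adjusted p of rho, Plin4 passed (0.0248) while Sgk1 (0.0575) and Ddit4 (0.06) did not. Log2(TPM + 1) in place of CPM left r at 0.90, 0.89 and 0.92 for Sgk1, Plin4 and Ddit4, with adjusted p of 0.0807, 0.0626 and 0.0626.

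The other members passed no threshold. Zbtb16 gave r = 0.80 and rho = 0.68 (permutation p = 0.002, adjusted p = 0.243), but within C57BL/6J-derived backgrounds r was 0.53 (permutation p = 0.0598), and without the 2 farthest animals, both h5/h5, it was 0.62. Tsc22d3 (r = 0.58, rho = 0.51, permutation p = 0.0323) and Fkbp5 (r = 0.57, rho = 0.43, permutation p = 0.0909) had adjusted p of 0.633 and 0.757. Errfi1 gave r = 0.42 and rho = 0.46 (permutation p = 0.129). The receptors did not pass, with r = 0.22 and rho = 0.09 for Nr3c2 (permutation p = 0.473) and r = -0.07 and rho = -0.19 for Nr3c1 (permutation p = 0.648). Their deviations were small, with standard deviations of 0.07 and 0.05 for Nr3c2 in brain and spinal cord, and 0.05 and 0.04 for Nr3c1. Across all 19816 genes the median r was 0.05 and the 90th percentile 0.40. Brain and spinal cord of an animal also share its sex, age and handling, whose part in these correlations was not tested apart from sex: with sex removed r was 0.92 for Sgk1 and 0.90 for Ddit4 (adjusted p = 0.0199 and 0.0451) and 0.85 for Plin4 (adjusted p = 0.0824).

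**Figure D4:**
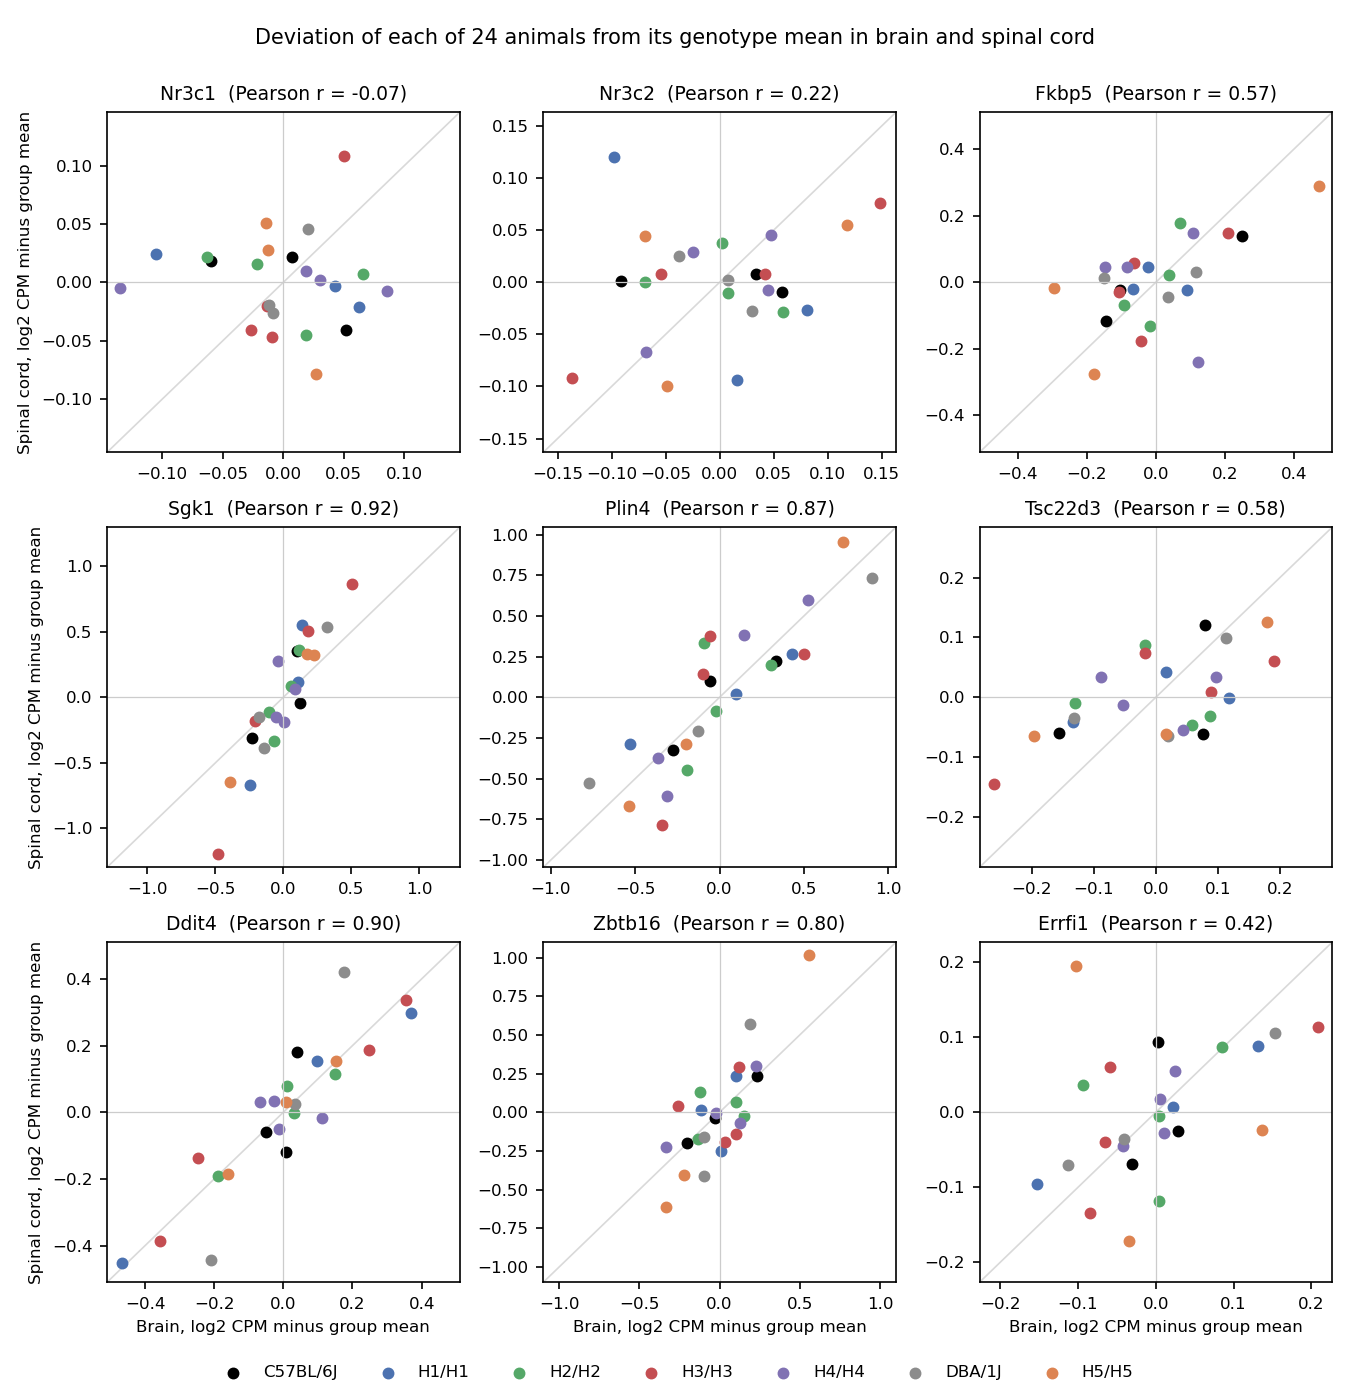
Deviation of each of 24 animals from its genotype mean in brain (horizontal) and spinal cord (vertical), both in log2 CPM, 1 panel per gene, coloured by genotype, with the line of equality in grey. Sgk1, Plin4 and Ddit4 follow a rising line (r of 0.92, 0.87 and 0.90), Nr3c1 and Nr3c2 do not.

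Among the 3 dissected regions of an animal the same individuals stood out for some of the genes. Rorb h5/h5 replicate 2 lay below its group mean for Sgk1 in cortex, hippocampus and cerebellum, at -0.34, -0.60 and -0.57 on the log2 scale, and replicate 3 lay above it by 0.32, 0.48 and 0.49. For Tsc22d3 replicate 2 was at -0.25, -0.36 and -0.32 and replicate 3 at 0.40, 0.40 and 0.27. For Plin4 replicate 2 was at -0.89, -1.05 and -0.48 and replicate 3 at 0.48, 0.42 and 0.44, below replicate 1 in hippocampus (0.63). Other genes did not all follow. For Nr3c2 replicate 2 lay above its group mean in the 3 regions, at 0.19, 0.17 and 0.11. In hippocampus it also lay above it for Fkbp5 (0.06) and Zbtb16 (0.04), and replicate 3 was at -0.06 for Zbtb16. Deviations of the 3 DBA/1J animals ran from -0.19 to 0.10 for Sgk1 over the 3 regions, and for Fkbp5 in cortex they ran from -0.37 to 0.40, wider than in h5/h5 mice (-0.24 to 0.18). With 3 animals a group no test was made. In h5/h5 replicate 2 the summed choroid plexus markers of the hippocampus were 240.0 TPM, below the other two of its group, and replicate 3 is the animal whose labelled sex the Y-linked gene goes against.

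The members did not all move together from animal to animal. Their deviations were correlated in pairs over the 24 brains and over the 24 spinal cords, 72 values in all, given as a description with no p. Ddit4 and Errfi1 went together in brain (r = 0.78, rho = 0.67, and r = 0.73 without the 2 farthest animals), and Sgk1 and Tsc22d3 in spinal cord (r = 0.77, rho = 0.75, and r = 0.71). Tsc22d3 and Errfi1 did so in spinal cord (r = 0.74, rho = 0.69). Fkbp5 went with Zbtb16 in brain (r = 0.80, rho = 0.73) and Plin4 with Zbtb16 in spinal cord (r = 0.80, rho = 0.74). Within C57BL/6J-derived backgrounds these 5 pairs gave 0.77, 0.82, 0.63, 0.62 and 0.65. The brain values of the 2 pairs with Tsc22d3 were 0.64 with Sgk1 and 0.56 with Errfi1, and Sgk1 and Errfi1 gave 0.64 in brain and 0.65 in spinal cord. Some other pairs had less similar values in the 2 tissues, and no difference between tissues was tested. Fkbp5 and Zbtb16 gave r = 0.49 in spinal cord, 0.06 without the 2 farthest animals and 0.02 within C57BL/6J-derived backgrounds, and Plin4 and Zbtb16 gave 0.63 in brain. Fkbp5 and Plin4 gave 0.52 in brain and 0.31 in spinal cord, the latter -0.03 without the 2 farthest animals. In spinal cord Plin4 also gave 0.53 with Tsc22d3 and 0.50 with Errfi1, against 0.11 and -0.17 in brain, and the spinal cord values were 0.31 and 0.28 without the 2 farthest animals. Ddit4 and Zbtb16 gave r = -0.40 in brain and -0.43 in spinal cord. Within C57BL/6J-derived backgrounds these were -0.33 and -0.09, and over the 6 DBA/1J and h5/h5 animals -0.73 in both. Zbtb16 and Errfi1 gave -0.51 in brain and 0.43 in spinal cord, and -0.55 and 0.32 without the 2 farthest animals. Genes of 1 library share its depth and RNA quality, whose part was not tested.

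**Figure D5:**
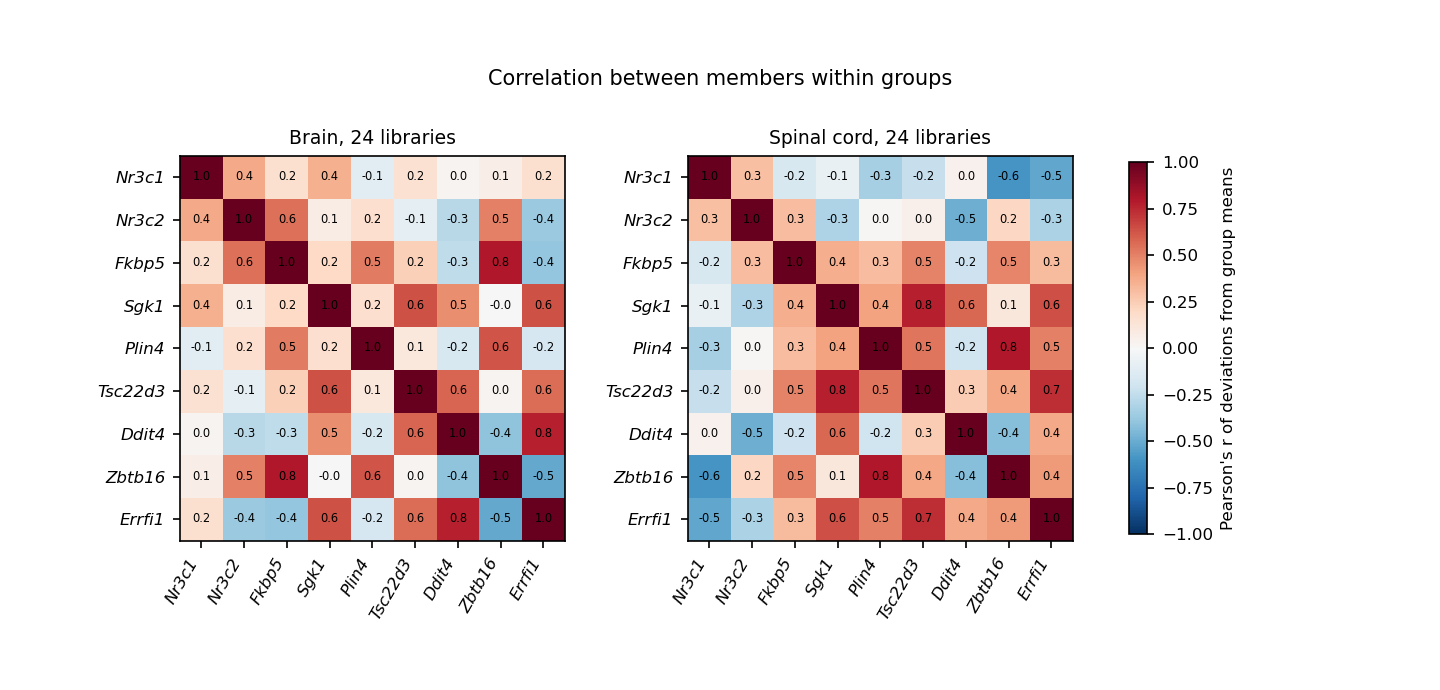
Pearson's r of within-group deviations for each pair of the 9 genes in 24 brains and 24 spinal cords (colour scale from -1 to 1, values printed to 1 decimal). In brain Fkbp5 and Zbtb16 (0.80) and Ddit4 and Errfi1 (0.78) are the strongest pairs, and in spinal cord Plin4 and Zbtb16 (0.80) and Sgk1 and Tsc22d3 (0.77).

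Companion lists place the members among their pathway. Of 30 other glucocorticoid-induced genes, 3, 1 and 5 passed as lower in h2/h2, h3/h3 and h4/h4 brain and 10, 7 and 8 in their spinal cords, while none passed as higher in these 6 comparisons. Of all genes tested, 0.136%, 0.164% and 0.703% passed in either direction in the 3 brains and 2.09%, 1.01% and 1.75% in the 3 spinal cords. In h1/h1 and h5/h5 tissues none passed, where at most 0.289% of all genes did. The list's median log2 fold change was -0.13, -0.09 and -0.13 in the 3 brains and -0.22, -0.16 and -0.15 in the 3 spinal cords. For h1/h1 mice the list's median was -0.10 (brain) and -0.11 (cord). The h5/h5 medians were -0.19 (cortex), -0.16 (cerebellum), -0.15 (hippocampus), -0.04 (hemi-sections) and -0.02 (spinal cord). Of the 6 comparisons of h2/h2, h3/h3 and h4/h4, Cdkn1a, an inhibitor of cyclin-dependent kinases, passed as lower in all 6 (-0.89 to -0.49). Mfsd2a, a lysophospholipid transporter of the blood-brain barrier, did so in 5 (-0.64 to -0.51). In the same 5 comparisons 1 of 6 endothelial markers, a list that does not hold Mfsd2a, passed as lower, and its part was not tested. Mt2, a metallothionein (-0.60 to -0.52), Gjb6, an astrocyte connexin (-0.35 to -0.30), and Glul, glutamine synthetase (-0.39 to -0.23), were lower in 4 each. The list was drawn up with earlier results of these libraries known, so it is not independent evidence of a direction.

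Between strains the other induced genes went both ways. In DBA/1J spinal cord 5 of 30 passed as higher and 6 as lower (21.3% of all genes passed), and in brain 2 and 4 (11.2%). Glul (-1.04 ± 0.07 in brain, edgeR adjusted p = 7.81e-06) and Klf9 (-0.73 ± 0.08, adjusted p = 0.000247), a Krüppel-like factor, were lower in DBA/1J, opposite to Sgk1, and Pdk4, a kinase that inhibits pyruvate dehydrogenase, was higher in brain (0.70 ± 0.09, adjusted p = 0.000624). Of 16 genes of steroid metabolism, transport and the hypothalamic-pituitary axis, Hsd11b1, which regenerates active corticosterone in cells, was lower in DBA/1J brain (-0.64 ± 0.14, edgeR adjusted p = 0.0182) and spinal cord (-1.26 ± 0.09, adjusted p = 2.5e-07). Hsd11b1 was higher in hippocampus than in cortex (1.25 ± 0.18, edgeR adjusted p = 0.00192) and higher still in cerebellum (2.50 ± 0.17, adjusted p = 1.15e-06). Srd5a1, a steroid reductase, and Akr1c14, which acts after it, were lower in DBA/1J brain (-0.70 ± 0.11 and -1.12 ± 0.23, adjusted p = 0.0037 and 0.0124). In mutants 1 of the list passed, as lower in h4/h4 brain (0.703% of all genes passed), with 14 of the 16 genes tested in brain and 13 in spinal cord.

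Of 18 receptor partners, among them the HSP90 machinery and nuclear co-activators, 1 passed as lower in h4/h4 brain (0.703% of all genes passed), 2 in h2/h2 (2.09%) and 1 in h4/h4 spinal cord (1.75%), and none as higher. Hspa8, a constitutive HSP70 chaperone, was lower in DBA/1J than in C57BL/6J brain (-0.61 ± 0.10, edgeR adjusted p = 0.0029) and spinal cord (-0.63 ± 0.06, adjusted p = 6.84e-06). Fkbp4, a co-chaperone that acts opposite to Fkbp5 on the receptor, was higher in cerebellum than in cortex (1.19 ± 0.09, edgeR adjusted p = 3.28e-06), where Fkbp5 was lower. Clock genes, several of which glucocorticoids also entrain, passed in h2/h2 spinal cord (2 higher and 1 lower of 14, 2.09% of all genes passing). In h4/h4 spinal cord 1 of 14 passed as lower (1.75% of all genes passing). In hippocampus 11 of 14 clock genes passed as below cortex, against 1858 of 17166 genes lower and 20.6% passing in either direction, among them Per1 (-0.77 ± 0.12, edgeR adjusted p = 0.00265). In DBA/1J against C57BL/6J spinal cord 1 of 14 clock genes passed as higher and 3 as lower (21.3% of all genes passed). The higher gene was Per1 (0.53 ± 0.08, edgeR adjusted p = 0.000297). Bhlhe41 (-0.38 ± 0.045, edgeR adjusted p = 4.56e-05) and Npas2 (-0.465 ± 0.097, adjusted p = 0.0039) were among the lower.

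For each member the gene with the most similar deviations from the group mean over all 66 libraries is named, by Pearson's r among genes passing the filter in all. These were Spag9 for Nr3c1 (r = 0.81), Dgkb for Nr3c2 (0.78), Rgs2 for Fkbp5 (0.69), Polr3e for Sgk1 (0.81), Xdh for Plin4 (0.76), Gm19439 for Tsc22d3 (0.82) and Errfi1 (0.66), Nfkbia for Ddit4 (0.74) and Mertk for Zbtb16 (0.82). Nfkbia, an inhibitor of NF-kappa-B that glucocorticoids also induce, had rank 2 for Sgk1 (0.77), and Mertk, a phagocytic receptor of glia, had rank 3 for Plin4 (0.71). The 66 libraries include several tissues of 1 animal, and no test was made.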

How the data were processed

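Polyadenylated RNA of 66 libraries in 20 groups was sequenced by the authors, who trimmed reads with Trim Galore, checked them with FastQC, aligned them to GRCm38 with STAR 2.7 and estimated genes with RSEM 1.3. The deposited tables hold expected counts, which are estimated and need not be whole (5.07% of values were not), and TPM, both as the authors' RSEM output, per library and without pooling. Expected counts were rounded here. Library totals were 32889755 to 59120536, and 78 replicate pairs held no identical files.

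Groups came from the deposited labels. The 9 members and the companion lists were chosen with earlier results of these data known. Genes named beside them followed a rule: up to 5 per companion list called in at least 3 of 10 mutant comparisons, the 3 of each list with the smallest adjusted p in a tested contrast, and the 3 genes most like each member. Of the genes that rule allows, those the text needs are given.

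Counts were tested with edgeR 4.0.16 (R 4.3.3, TMM scaling, its default low-count filter, quasi-likelihood test), one fit per comparison, with Benjamini-Hochberg adjustment over all genes tested and a threshold of 0.05. Alternatives were DESeq2 1.42.0, its size factors within edgeR, a single fit per tissue, a block for replicate number, a term for sex, all genes without the low-count filter, and each library left out in turn. The study's own tests used DESeq2. Spinal cord and brain, and the 3 regions, came from the same animals, so there the replicate number pairs samples by animal. Between genotypes the numbers mark different animals. Same-numbered libraries of different tissues correlated at -0.092 to 0.28 across genes. Deviations within genotype used log2 CPM with a prior count of 2 and 100000 permutations. Nothing says that litters were separate, so p-values measure the spread between these animals. In counts simulated for Rorb h4/h4 spinal cord (17233 genes), edgeR recovered 77.3% of genes changed 1.5-fold and 89.2% of those changed 2-fold. Of the genes edgeR called there, 6.08% had not been changed, and of those DESeq2 called, 8.6%, both above the threshold of 0.05. Motifs were searched in RefSeq windows of GRCm38.p6, which were at hand for 7 members.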

Additional observations from a re-analysis of the deposited data

Results flagged for a closer look

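Errfi1 in the spinal cord of Rorb h3/h3 replicate 4 was 45.24 TPM, against 39.6 to 40.5 TPM in the other 3 animals. Its gap to the nearest of them was 0.838 of the group's range, above Dixon's critical value for 4 samples. Of 54 groups of 4 tested this was the 1 that passed, and chance alone passes about 1 in 20. The same animal had the highest Sgk1 of its genotype in both tissues. Among 126 pairs of tissues compared for a gene and an allele, 0 had every library of one tissue above its controls and every library of the other below.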

How the results depend on the processing

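No member reversed direction past a threshold under any alternative run. The cause of each difference below was not tested. For mutants against C57BL/6J in brain, 5 pairs of a gene and an allele passed, against 9 with DESeq2, 9 with no low-count filter, 2 with sex as a covariate and 3 with the replicate block, and 3 to 6 when 1 library was left out (3 without C57BL/6J replicate 1 or 2 or Rorb h2/h2 replicate 3 or 4). In spinal cord 9 passed, against 14 with no low-count filter, 3 with one fit of all groups, 6 with sex as a covariate (without Plin4 and Tsc22d3 in Rorb h3/h3 and Nr3c1 in Rorb h4/h4) and 10 with the replicate block, and 4 to 9 when 1 library was left out (4 without C57BL/6J replicate 1, 5 without replicate 3). For Rorb h5/h5 against DBA/1J the count was 0 under all settings run, among them a term for sex that in the regions took the label of replicate 3 as given. Between control strains 4 passed, and 3 to 7 when 1 library was left out (7 without DBA/1J spinal cord replicate 3, where Plin4, Ddit4 and Zbtb16 also passed). With the replicate block Nr3c2 was lost in brain (adjusted p = 0.0685) and Ddit4 passed in spinal cord (0.0314), although these numbers mark different animals. For spinal cord against brain 10 passed, with 15 under the replicate block, 15 with sex as a covariate and 9 to 11 when 1 library was left out. Between regions 11 passed, with 12 under the block, 13 with sex as a covariate and 10 to 12 when 1 library was left out. For sex 0 passed, and 4 with no low-count filter. For the genotype by tissue interaction 0 passed, with 1 by DESeq2 (Nr3c2 in Rorb h4/h4), 2 with no low-count filter (Nr3c2 and Sgk1 in Rorb h4/h4) and 0 when any 1 animal was left out. For brain and spinal cord of the same animals 3 members passed, with 2 when sex was removed, 0 on log2(TPM + 1) and 0 without Rorb h5/h5 animal 3 and DBA/1J animal 1, an alternative chosen after seeing the data, where r stayed at 0.92, 0.84 and 0.90 for Sgk1, Plin4 and Ddit4 (adjusted p = 0.0991 for each).

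With 3 or 4 animals a group, small differences in Nr3c1 and Nr3c2 rest on few libraries, and the Rorb h4/h4 spinal cord difference of Nr3c1 passed in 0 of 7 fits without 1 library. Plin4 had 58 counts in its lowest library. Mutant lines differ from their controls in more than the Rorb allele, and the 4 alleles on C57BL/6J-derived backgrounds share 3 controls per tissue.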
